A study of Mus musculus with 6 samples.

Results

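The genes described here encode voltage-gated sodium and calcium channels. They were chosen by a rule on gene names, set with earlier results of these data known: all protein-coding genes of GENCODE M21 named Scn with a number and a or b, and all whose symbol begins with Cacn. The rule gave 40 genes of 49315 in the count table, 14 of sodium channels and 26 named for calcium channels. RNA-seq was done on mouse tissue dissected at embryonic day 14 from the medial ganglionic eminence, or MGE. Neurons of the pallidum and many interneurons of the cortex come from this part of the ventral forebrain. WT libraries came from Nkx2.1-Cre; Prdm16+/+; Ai14 embryos and libraries labelled KO from Nkx2.1-Cre; Prdm16fl/fl; Ai14 embryos, 3 libraries a group, each from 1 pool of 3 embryos. Both groups thus carried the Cre, which acts in the Nkx2.1-expressing lineage, and Ai14, a Cre-dependent fluorescent reporter. Whole dissected tissue was used, so cells outside that lineage, which keep Prdm16, contribute RNA to each pool. The comparison asks which transcripts differ when the zinc finger transcription factor gene Prdm16 is deleted in this lineage.

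A voltage-gated sodium channel has a large alpha subunit that forms the pore and carries the upstroke of the action potential, with small beta subunits that adjust gating and adhesion. In calcium channels an alpha1 subunit forms the pore. Beta and alpha2delta subunits bring high-voltage-activated channels to the membrane and tune them. Cav1 (L-type) channels couple activity to signalling and gene expression, Cav2 channels trigger transmitter release, and Cav3 (T-type) channels open near the resting potential. Most of the genes named Cacng encode TARPs, which are partners of AMPA-type glutamate receptors, rather than subunits of calcium channels. In immature neurons calcium entry through these channels takes part in migration and maturation.

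Libraries held between 33188277 and 55552298 counts. Prdm16 itself had 49.4 ± 5.55 CPM over WT and 50.2 ± 4.02 CPM over pools labelled KO (SD, n = 3 each; edgeR log2 fold change 0.02, adjusted p = 0.884). Reads over the deleted exons were not analysed apart from the rest of the gene, so Prdm16 does not check the label. Every direction below rests on that label. The MGE markers Nkx2-1 (647 ± 29.4 and 769 ± 118 CPM, SD, n = 3) and Lhx6 (652 ± 31.2 and 503 ± 26.6 CPM, SD, n = 3) were abundant in both groups, and Lhx6 fell (log2 fold change -0.38, edgeR adjusted p = 0.00627). A further MGE marker, Lhx8, rose from 166 ± 7.09 to 234 ± 33.7 CPM (SD, n = 3; log2 fold change 0.49, edgeR adjusted p = 0.00952). KO 1 lay apart from KO 2 and KO 3 on the second principal component (-34.99 against 11.58 and 12.4, 16.1% of the variance). Xist was at 1.92 CPM in KO 1, 721 CPM in KO 2 and 1420 CPM in KO 3, so the pools labelled KO differed in sex makeup. Levels are given as CPM, a count per library size after TMM scaling.

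Of the 40 genes 34 passed the filter on low counts and were tested. In the pools labelled KO 9 of them fell, 1 rose and 24 did not pass the edgeR quasi-likelihood test at an adjusted p of 0.05. The genes that fell were Scn1a, Scn10a, Cacna1b, Cacna1c, Cacna1d, Cacna1e, Cacnb4, Cacng1 and Cacng3, and the gene that rose was Scn11a. Called genes were thus 29.4% of the tested members, against 20.2% of all 18079 tested genes. Those that fell were 26.5%, against 10.5% of all tested genes, and the single rise was 2.94%, against 9.72%. Cacng1 is in the count of falls though it passed the filter through its WT libraries, where it is high. With a filter at a mean of 1 CPM, which left it out, 8 of 32 members fell (25%), against 12.2% of all genes in that fit. Among the 34 tested members 24 had a negative log2 fold change, and their median was -0.24 where that of all tested genes was 0. In 13 members (38.2%, against 19.6% of all tested genes) every pool labelled KO lay below every WT pool, and in 3 members (8.82%, against 20.3%) above. In either direction groups did not overlap for 39.9% of all tested genes.

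The count of falls depended on the libraries, and that of rises on whether the trend on transcript length was removed. Without KO 1 17 members fell (50%) and 2 rose (5.88%), against 20.9% and 20.6% of all genes in that fit. With WT 2, WT 3 or KO 2 left out in turn 4 members fell (11.8%, 11.4% and 11.4%), against 3.9%, 3.91% and 4.17% of all genes. Without KO 3 5 members fell (14.3%), against 4.31%, and without WT 1 8 members fell (22.9%), against 6.31%. Scn1a, Scn11a, Cacnb4 and Cacng3 stayed past the threshold in each of the 6 fits that left out 1 library. The members are long, with a median of 8.86 kb of exon against 4.48 kb for tested protein-coding genes. Across 14556 tested protein-coding genes the log2 fold change went with exonic length at a Spearman rho of -0.34, and across the 34 members at -0.14 (genes are not independent replicates). When each library's trend on exonic length was removed, 8 members fell (23.5%, against 9.39% of all tested genes) and 4 rose (11.8%, against 10.2%), and the median of the members was -0.14.

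**Figure D1:**
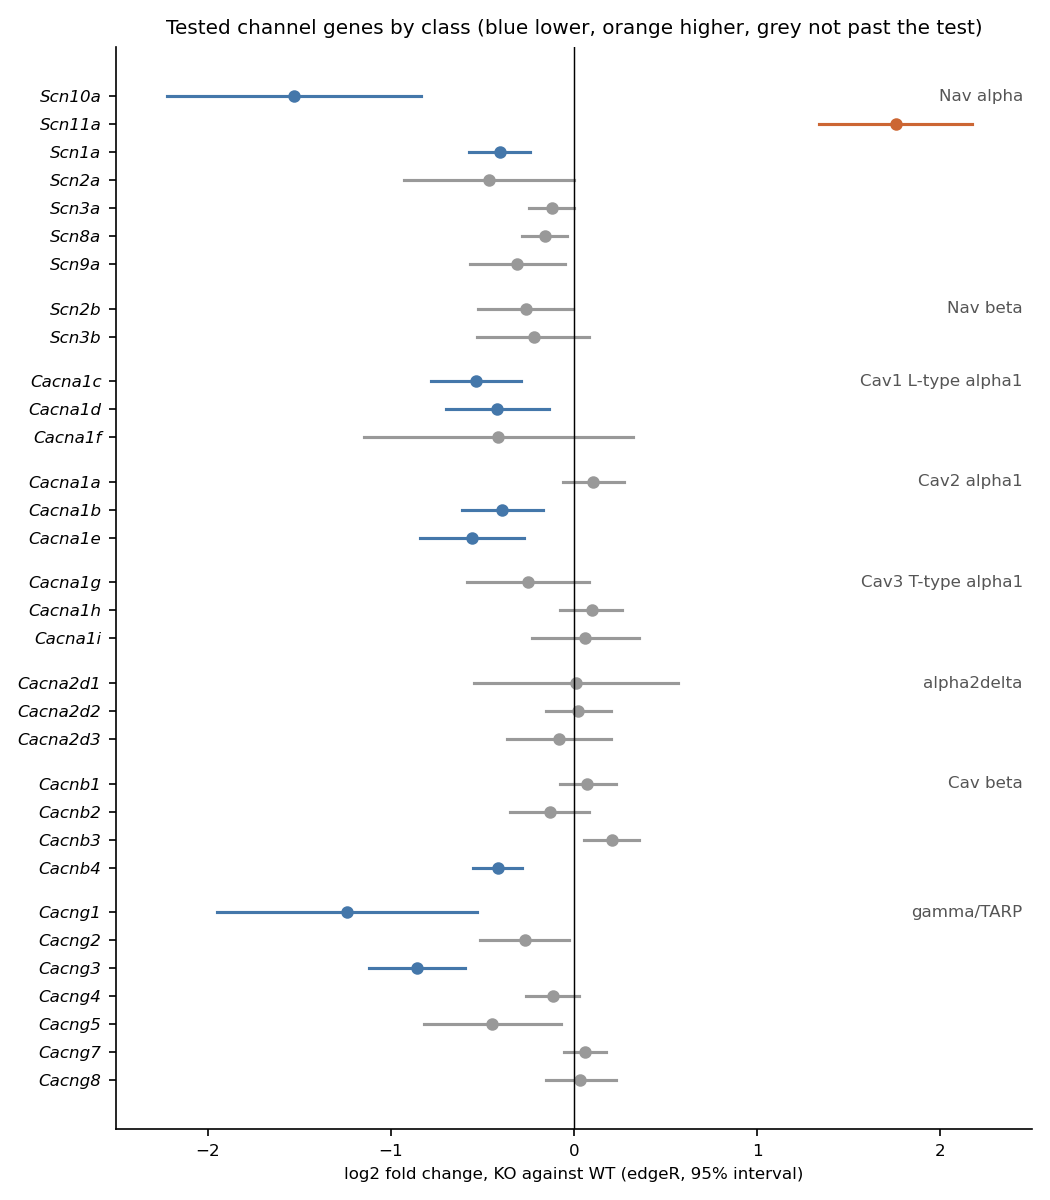
Log2 fold change (x axis) of the channel genes reported here (y axis, grouped by class), pools labelled KO against WT, with the 95% interval from edgeR. Blue marks the 9 genes that fell, orange Scn11a, which rose, and grey those that did not pass. Most points lie left of 0 and within 1 log2 unit of it.

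Levels of different genes are compared per length, as CPM per kb of annotated exon. This length merges all annotated exons of a gene. Which transcripts were present in the MGE was not tested, so the order of genes depends on the annotation. Among sodium channel alpha genes Scn3a, the gene of the embryonic channel Nav1.3, had the highest level, with 10.1 ± 0.444 CPM per kb (SD, n = 3) in WT. It made up 44.6 to 45.9% of the summed alpha level in WT and 46.1 to 48% in the pools labelled KO. Scn8a, which encodes the Nav1.6 channel of mature axons, came next at 5.59 ± 0.173 CPM per kb, above Scn2a at 2.22 ± 0.481 CPM per kb. Scn1a had 1.58 ± 0.07 and Scn9a 1.34 ± 0.187 CPM per kb, with WT ranges that overlapped. Scn10a and Scn11a, known from sensory neurons, were the lowest of the tested alpha genes. Scn4a of skeletal muscle and Scn7a had totals of only 11 and 22 counts over the 6 libraries and were not tested.

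Calcium channel pores ranked in WT with Cacna1h (Cav3.2) at 14 ± 1.06 CPM per kb and Cacna1b (Cav2.2, N-type) at 10.1 ± 0.951 CPM per kb (SD, n = 3). Cacna1g (Cav3.1) had 5.97 ± 1.13 CPM per kb, Cacna1a (Cav2.1, P/Q-type) 3.78 ± 0.352 and Cacna1e (Cav2.3, R-type) 3.18 ± 0.335 CPM per kb. The ranges of Cacna1a and Cacna1e over the WT pools did not overlap, but their order rests on the annotated length (11.4 and 25.2 kb). In CPM Cacna1e was the higher, with 80.1 ± 8.43 against 43.1 ± 4.05 CPM in WT (SD, n = 3). L-type genes had Cacna1c (Cav1.2) at 2.52 ± 0.263 and Cacna1d (Cav1.3) at 1.56 ± 0.206 CPM per kb, and Cacna1i (Cav3.3), whose WT range overlapped that of Cacna1d, had 1.59 ± 0.199 CPM per kb. Cacna1f, the L-type channel gene of the retina, was at 0.0344 ± 0.00145 CPM per kb. Cacna1s, that of skeletal muscle, had 16 counts in all and was not tested. Of 8 muscle markers 3 passed the filter on counts, of which 1, Myh3, rose (33.3%, against 9.72% of all tested genes). Myh3 had 7 to 10 counts in WT and 21 to 29 in the pools labelled KO. It passed the filter through the latter, where it is high, so its rise is no support for a difference. Myog was at 0, and the summed list had 2.23 to 3.91 CPM in WT and 2.61 to 3.23 CPM in the pools labelled KO.

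One auxiliary gene dominated most auxiliary classes. Scn3b had 19.7 ± 3.27 CPM per kb (SD, n = 3) in WT and made up 82.7 to 85.4% of the summed beta level of sodium channels. Cacna2d2 held 71.8 to 76.2% of the alpha2delta level and Cacnb3 72.7 to 73% of the calcium channel beta level. In the Cacng class a pair led, Cacng7 at 64.3 ± 0.693 and Cacng4 at 60.9 ± 2.63 CPM per kb, the highest levels of any member in WT. Their WT ranges did not overlap per length, but in CPM Cacng4 was the higher (218 ± 9.67 against 157 ± 1.44 CPM in WT). In the pools labelled KO the mean of Cacnb3 (62.4 ± 4.75 CPM per kb) lay above that of Cacng4 (56.3 ± 3.98 CPM per kb). Scn4b, Cacna2d4 and Cacng6, with totals of 21, 36 and 12 counts, were not tested.

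**Figure D2:**
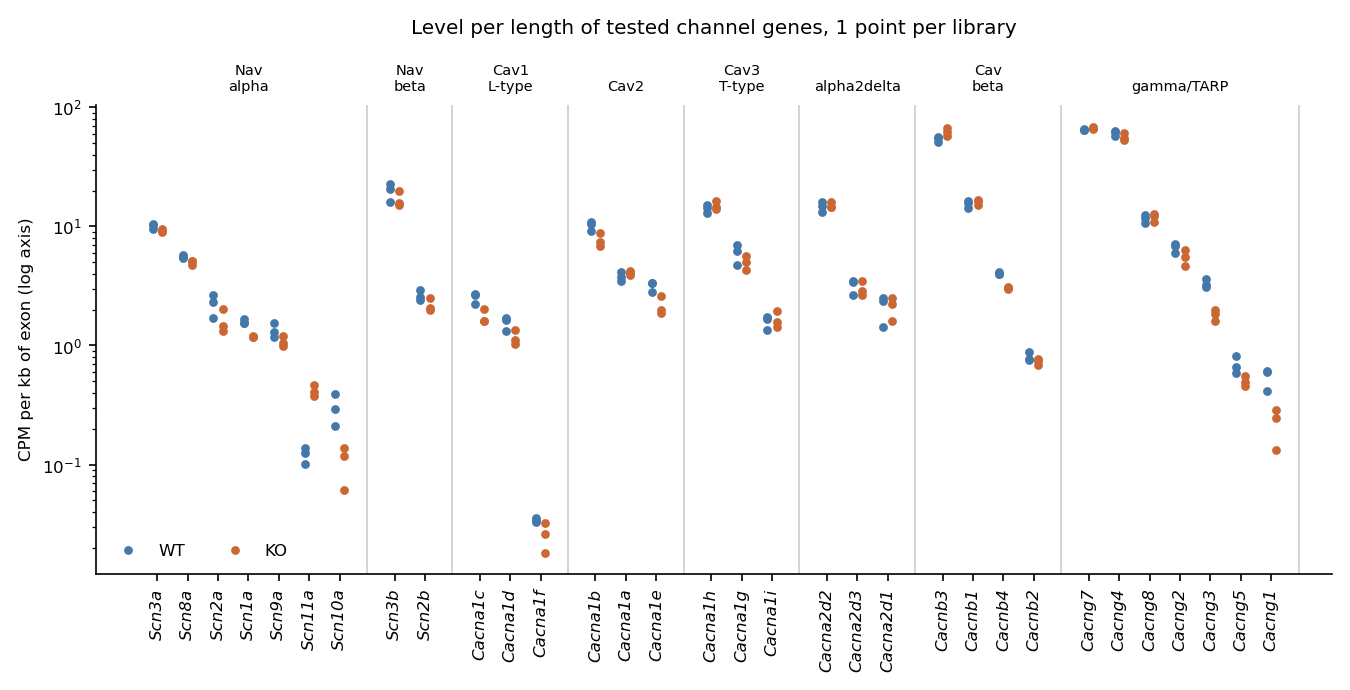
Level of the channel genes reported here in CPM per kb of exon (y axis, log scale), 1 point per library, WT in blue and the pools labelled KO in orange, ordered within each class by mean level (x axis). Cacng7, Cacng4 and Cacnb3 stand highest, and Cacna1f lowest at 0.0344 CPM per kb in WT.

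Scn11a was the only member that rose, and its neighbour Scn10a was the member with the largest fall in fold. Both encode channels known from pain-sensing neurons, Nav1.9 and Nav1.8. Scn11a (ENSMUSG00000034115, GRCm38 chromosome 9, 119753759 to 119825456, minus strand) had 38, 25 and 23 counts in WT 1 to 3 and 98, 88 and 151 counts in KO 1 to 3. In CPM these were 0.824, 0.747 and 0.6 against 2.21, 2.42 and 2.74, and all 3 pools labelled KO lay far above WT. The rise was 3.38-fold (log2 fold change 1.76, SE 0.19, edgeR adjusted p = 0.000464), and the call held in 17 of 17 alternatives. The level remained low: 0.414 ± 0.0448 CPM per kb (SD, n = 3) in the pools labelled KO, which was 1.8 to 2.4% of the summed alpha level.

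Scn10a (ENSMUSG00000034533, chromosome 9, 119608456 to 119719322, minus strand) had 2.34, 1.67 and 3.13 CPM in WT 1 to 3 and 1.11, 0.933 and 0.489 CPM in KO 1 to 3. WT pools spread widely, with WT 2 lowest and WT 3 highest, and the groups did not overlap. The gene was 2.89-fold lower (log2 fold change -1.53, SE 0.31, edgeR adjusted p = 0.0115). The call was lost without WT 3 (adjusted p = 0.0521) and held in the other 16 alternatives, all at a threshold of 0.05.

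The upstream stretch of Scn11a is shown because this gene moved against all other called members. It is taken from the RefSeq promoter table (GRCm38.p6, minus strand, chr9:119825457-119825636) and ends at the base before the annotated start. Capitals mark the E-box CAGCTG, a palindrome whose first base lies 59 bases before the start. Whether this start is used in the MGE was not tested.
Scn11a: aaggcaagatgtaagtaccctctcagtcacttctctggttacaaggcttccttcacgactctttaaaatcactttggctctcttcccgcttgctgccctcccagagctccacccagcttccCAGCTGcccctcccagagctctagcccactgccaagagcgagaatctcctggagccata

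Scn10a and Scn11a are neighbours on the same strand, with a gap of 34.4 kb. Of sequence shared with other members there was little: 1.66% of the 50-base words of Scn10a transcripts and 0% of those of Scn11a occur in another member.

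Of the sodium channel genes known from central neurons Scn1a fell, while Scn2a, Scn3a and Scn8a did not pass. Scn1a, which encodes Nav1.1 and is a channel gene of later interneurons, had 17.3, 18.5 and 17 CPM in WT 1 to 3 and 13.2, 13.2 and 13.4 CPM in KO 1 to 3. The pools labelled KO were nearly identical and all lay below WT. It was 1.33-fold lower (log2 fold change -0.41, SE 0.07, edgeR adjusted p = 0.00742), and the call held in 17 of 17 alternatives. With the length trend removed the log2 fold change of Scn1a was -0.26 (adjusted p = 0.0431). Scn2a, which encodes Nav1.2, had 21.7, 33.7 and 29.4 CPM in WT 1 to 3 and 26, 18.4 and 16.9 CPM in KO 1 to 3. WT 1 lay below KO 1, so the groups overlapped, and the log2 fold change of -0.47 (SE 0.20) did not pass (edgeR adjusted p = 0.135). DESeq2 called it (adjusted p = 0.0353). The interval of its fold ran from 0.526 to 0.999.

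Scn3a and Scn8a had small differences with groups that did not overlap. Scn3a had 119, 129 and 127 CPM in WT 1 to 3 and 119, 111 and 115 CPM in KO 1 to 3. At 3 digits WT 1 and KO 1 were alike, and the log2 fold change was -0.12 (edgeR adjusted p = 0.147). Scn8a had 85.7, 91.1 and 87.5 CPM for WT against 80.8, 75.1 and 80.5 CPM for pools labelled KO, all below WT (log2 fold change -0.16, edgeR adjusted p = 0.0674). Scn9a, which encodes Nav1.7, went from 17.1 ± 2.41 to 13.8 ± 1.35 CPM (SD, n = 3; log2 fold change -0.31, edgeR adjusted p = 0.0844). Without KO 1 all of these passed as lower (edgeR adjusted p = 0.0337, 0.0141 and 0.0131). With the length trend removed the values of Scn3a and Scn8a were 0.04 and 0.03 (log2), so their direction depends on that step. Among transcripts of Scn1a, Scn2a, Scn3a and Scn9a, which lie on chromosome 2, 4.03 to 6.49% of 50-base words occur in another member. Whether any of their reads could not be assigned to 1 gene was not tested.

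The beta subunit genes of sodium channels did not pass. Scn3b had 87.9, 123 and 112 CPM in WT 1 to 3 and 108, 83.2 and 85.8 CPM in KO 1 to 3, with overlapping groups (log2 fold change -0.22, edgeR adjusted p = 0.271). Scn2b had 12.2 ± 1.17 CPM over WT and 10.2 ± 1.3 CPM over pools labelled KO (SD, n = 3; log2 fold change -0.26, edgeR adjusted p = 0.132). It passed as lower without KO 1 (adjusted p = 0.0106).

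Among the calcium channel pores, 2 of 3 tested L-type genes and 2 of 3 Cav2 genes fell, and 0 of 3 T-type genes passed. Of all tested genes 10.5% fell. Whether the classes differ was not tested. Cacna1c (chromosome 6, 118587240 to 119196418) had 47, 57.4 and 55.8 CPM in WT 1 to 3 and 43.1, 33.8 and 33.7 CPM in KO 1 to 3. All pools labelled KO lay below WT, with KO 1 nearest to it. The gene was 1.45-fold lower (log2 fold change -0.53, SE 0.11, edgeR adjusted p = 0.0119). Cacna1d (chromosome 14, 30039939 to 30491455) had 16.6, 21.4 and 20.8 CPM for WT against 16.9, 14 and 12.9 CPM for pools labelled KO. Here KO 1 lay above WT 1, so the groups overlapped, and the call was near the threshold (1.34-fold lower, log2 fold change -0.42, SE 0.13, edgeR adjusted p = 0.0437).

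Both L-type calls were lost when certain libraries were left out. That of Cacna1c was lost without WT 2, WT 3 or KO 2 (edgeR adjusted p = 0.0556, 0.0544 and 0.0513). The call of Cacna1d was lost without WT 2, WT 3, KO 2 or KO 3 (edgeR adjusted p = 0.159, 0.145, 0.139 and 0.156) with the length trend removed (0.101) and with a spread estimate that was not robust (0.0501). With the length trend removed the log2 fold change of Cacna1c was -0.31 (adjusted p = 0.0232). Cacna1f had 0.325, 0.299 and 0.313 CPM for WT against 0.293, 0.165 and 0.236 CPM for pools labelled KO. These rest on 6 to 15 counts a library, and the fold was not separable from 1 (log2 fold change -0.41, edgeR adjusted p = 0.391, interval 0.452 to 1.25). Mural cells, which also express Cacna1c, had lower markers too. Of 10 such markers 6 fell (60%, against 10.5% of all tested genes) and 4 did not pass. Their summed list went from 128 to 130 CPM in WT to 76.8 to 111 CPM in the pools labelled KO. The part of these cells in the Cacna1c result was not tested.

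Of the Cav2 genes Cacna1e and Cacna1b fell and Cacna1a did not pass. Cacna1e (chromosome 1, 154390731 to 154884501) had 70.4, 85.1 and 84.9 CPM in WT 1 to 3 and 65.8, 50 and 47.6 CPM in KO 1 to 3. The groups did not overlap, and the gene was 1.47-fold lower (log2 fold change -0.56, SE 0.13, edgeR adjusted p = 0.0189). Cacna1b (chromosome 2, 24603887 to 24763152) had 90.1, 108 and 103 CPM for WT against 87.6, 68 and 73.5 CPM for pools labelled KO. WT 1 and KO 1 were close, and the gene was 1.31-fold lower (log2 fold change -0.39, SE 0.10, edgeR adjusted p = 0.0238). Both calls were lost without WT 2, WT 3, KO 2 or KO 3 (edgeR adjusted p = 0.0711, 0.0704, 0.0681 and 0.0657 for Cacna1e, and 0.0995, 0.0846, 0.0915 and 0.0893 for Cacna1b). With the length trend removed the log2 fold change of Cacna1e was -0.31 (adjusted p = 0.0255). Cacna1a, with 39.4, 47.4 and 42.6 CPM for WT against 48, 44.6 and 46.5 CPM for pools labelled KO, had overlapping groups (log2 fold change 0.11, edgeR adjusted p = 0.335). It passed as higher with the length trend removed (log2 fold change 0.25, adjusted p = 0.0341).

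As shares of the summed Cav2 level the genes had other values in each group. Cacna1a made up 21.3 to 22.5% of the Cav2 level per length in WT and 26.9 to 30.7% in the pools labelled KO. Cacna1b went from 59.2 to 59.4% to 53.7 to 56.4%, and Cacna1e from 18.2 to 19.3% to 14.2 to 16.7%. None of these ranges overlapped. The shares are a description with no test, since they add to a whole.

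None of the T-type genes passed. Cacna1h had 126, 139 and 146 CPM in WT 1 to 3 and 160, 142 and 137 CPM in KO 1 to 3 (log2 fold change 0.10, edgeR adjusted p = 0.39, fold interval 0.95 to 1.2). Its groups overlapped, and it passed as higher with the length trend removed (log2 fold change 0.22, adjusted p = 0.0357). Cacna1g had 47.8, 70.1 and 63.6 CPM for WT against 57.6, 43.6 and 50.9 CPM for pools labelled KO, a wide spread in both groups (log2 fold change -0.25, edgeR adjusted p = 0.244, fold interval 0.666 to 1.06). Cacna1i had a log2 fold change of 0.06 (adjusted p = 0.767) and turned negative without WT 1 or KO 1 (-0.04 and -0.07).

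**Figure D3:**
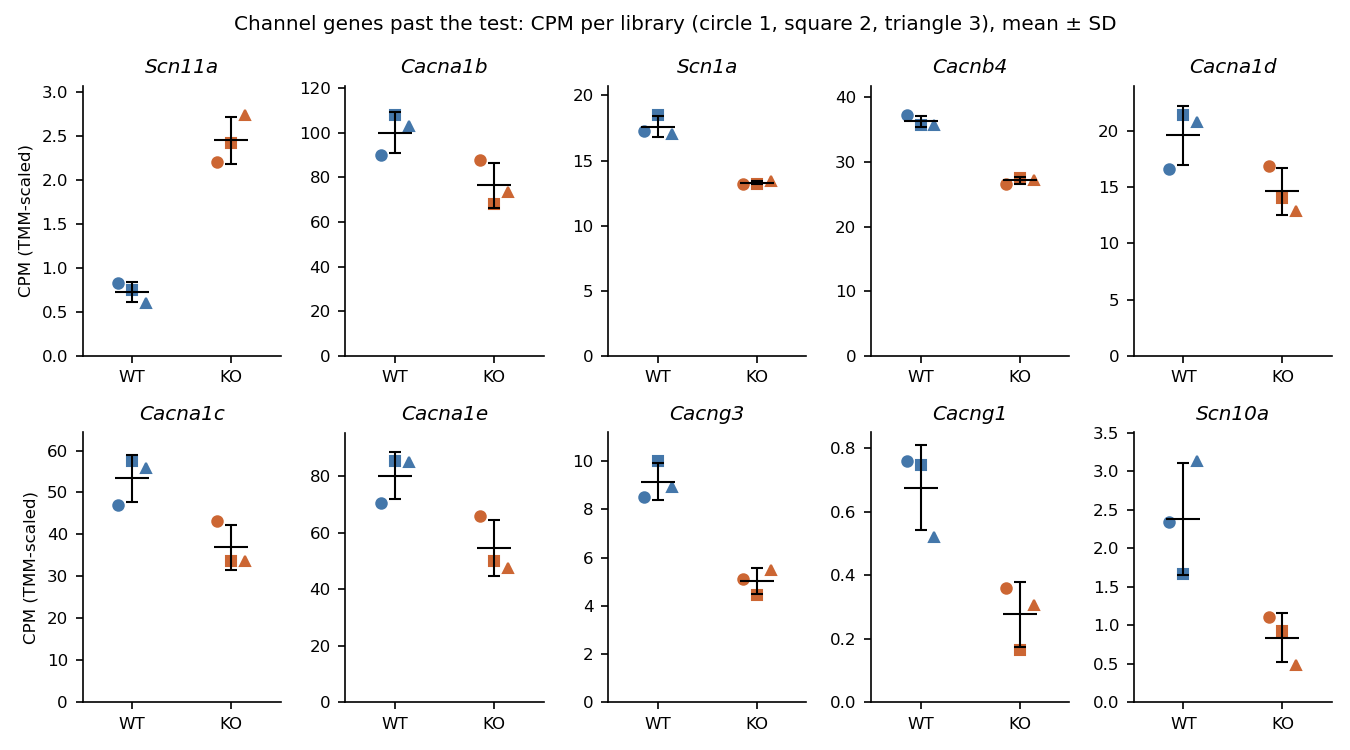
CPM of the 10 genes past the test (y axes from 0) in WT (blue) and the pools labelled KO (orange), circles, squares and triangles being libraries 1, 2 and 3 and black bars mean ± SD. Scn11a is higher, the other 9 are lower, and only Cacna1d overlaps between the groups.

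Of the calcium channel beta genes Cacnb4 fell. Cacnb4 (chromosome 2, 52428320 to 52676831) had 37.3, 35.7 and 35.8 CPM in WT 1 to 3 and 26.6, 27.6 and 27.3 CPM in KO 1 to 3. Replicates were tight in both groups and did not overlap. The gene was 1.33-fold lower (log2 fold change -0.42, SE 0.06, edgeR adjusted p = 0.00233), and the call held in 17 of 17 alternatives. Of the exonic bases of Cacnb4 15.99% overlap A430018G15Rik, a noncoding gene on the other strand, which had 68 counts over all libraries against 7978 for Cacnb4. The strand setting is not known, so these counts cannot show which gene the reads over the shared bases came from. Cacnb3, the main beta gene here, had 207, 224 and 221 CPM for WT against 231, 251 and 269 CPM for pools labelled KO. Each of the latter lay above WT, yet the log2 fold change of 0.21 (SE 0.07) just missed the threshold (edgeR adjusted p = 0.0558). It passed with DESeq2 (adjusted p = 0.0301), without KO 1 (edgeR adjusted p = 0.000856), with no filter (0.0181) and with the length trend removed (0.0442). The share of Cacnb4 in the beta level went from 5.18 to 5.88% to 3.49 to 3.8%, and that of Cacnb3 from 72.7 to 73% to 73.7 to 76.9%. Cacnb1 (log2 fold change 0.07, adjusted p = 0.461) and Cacnb2 (-0.13, adjusted p = 0.359) did not pass.

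None of the alpha2delta genes, whose products bind gabapentin or resemble those that do, passed. Cacna2d2 had 104, 128 and 118 CPM in WT 1 to 3 and 115, 126 and 115 CPM in KO 1 to 3 (log2 fold change 0.02, edgeR adjusted p = 0.872). Its groups overlapped fully, and the interval of the fold was 0.898 to 1.15. Cacna2d1 varied widely within both groups, with 17.8, 31.1 and 29.6 CPM for WT against 30.9, 20.1 and 27.5 CPM for pools labelled KO, and the interval of its fold was 0.685 to 1.48. Cacna2d3 had a log2 fold change of -0.08 (adjusted p = 0.676).

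In the Cacng class 2 of 7 tested genes, Cacng3 and Cacng1, fell (28.6%, against 10.5% of all tested genes). Cacng3 (chromosome 7, 122670492 to 122769393), which encodes a TARP of forebrain neurons, had 8.52, 9.98 and 8.92 CPM in WT 1 to 3 and 5.12, 4.45 and 5.49 CPM in KO 1 to 3. The groups were well apart. It was 1.81-fold lower (log2 fold change -0.86, SE 0.12, edgeR adjusted p = 0.00177), and the call held in 17 of 17 alternatives. Cacng2, which encodes stargazin, had 32.9, 39 and 37.6 CPM for WT against 34.6, 25.6 and 30.6 CPM for pools labelled KO. KO 1 lay within the WT range, and the gene did not pass (log2 fold change -0.27, edgeR adjusted p = 0.107) except without KO 1 (adjusted p = 0.0104) or with no filter (0.0497).

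Cacng1, the gene of the calcium channel gamma subunit of skeletal muscle, had 0.759, 0.747 and 0.522 CPM for WT against 0.361, 0.165 and 0.308 CPM for pools labelled KO. These stand for 20 to 35 and 6 to 17 counts, and the gene passed the filter on counts through its WT libraries, where it is high. Its call (log2 fold change -1.24, SE 0.32, edgeR adjusted p = 0.0254) is therefore no support for a difference. With a filter at a mean of 1 CPM it was not tested, and 8 of 32 members fell. The call was lost without WT 1, WT 2, KO 2 or KO 3 (edgeR adjusted p = 0.0855, 0.0894, 0.083 and 0.0745). Its neighbour Cacng4, 15.8 kb away, had 207, 221 and 225 CPM for WT against 217, 189 and 198 CPM for pools labelled KO (log2 fold change -0.11, edgeR adjusted p = 0.239). Cacng5, the third gene of this row, had 2.63 ± 0.431 and 1.93 ± 0.204 CPM (SD, n = 3; log2 fold change -0.45, adjusted p = 0.0854). The neighbours Cacng7 (log2 fold change 0.06, adjusted p = 0.427) and Cacng8 (0.03, adjusted p = 0.795) did not pass, and the fold of Cacng7 lay between 0.964 and 1.13.

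Among pore-forming genes 6 of 17 tested fell (35.3%) and 1 rose (5.88%), with a median log2 fold change of -0.31. Among auxiliary genes 3 of 17 fell (17.6%) and 0 rose, with a median of -0.13. Of all tested genes 10.5% fell and 9.72% rose, with a median of 0. Whether pore-forming and auxiliary genes differ was not tested. Over the whole set 26 of 34 members had their lowest WT value in WT 1 (76.5%, against 36.1% of all tested genes). The highest value of the pools labelled KO was in KO 1 for 27 of 34 (79.4%, against 40.4%). The part of this pattern in the calls was not tested.

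**Figure D4:**
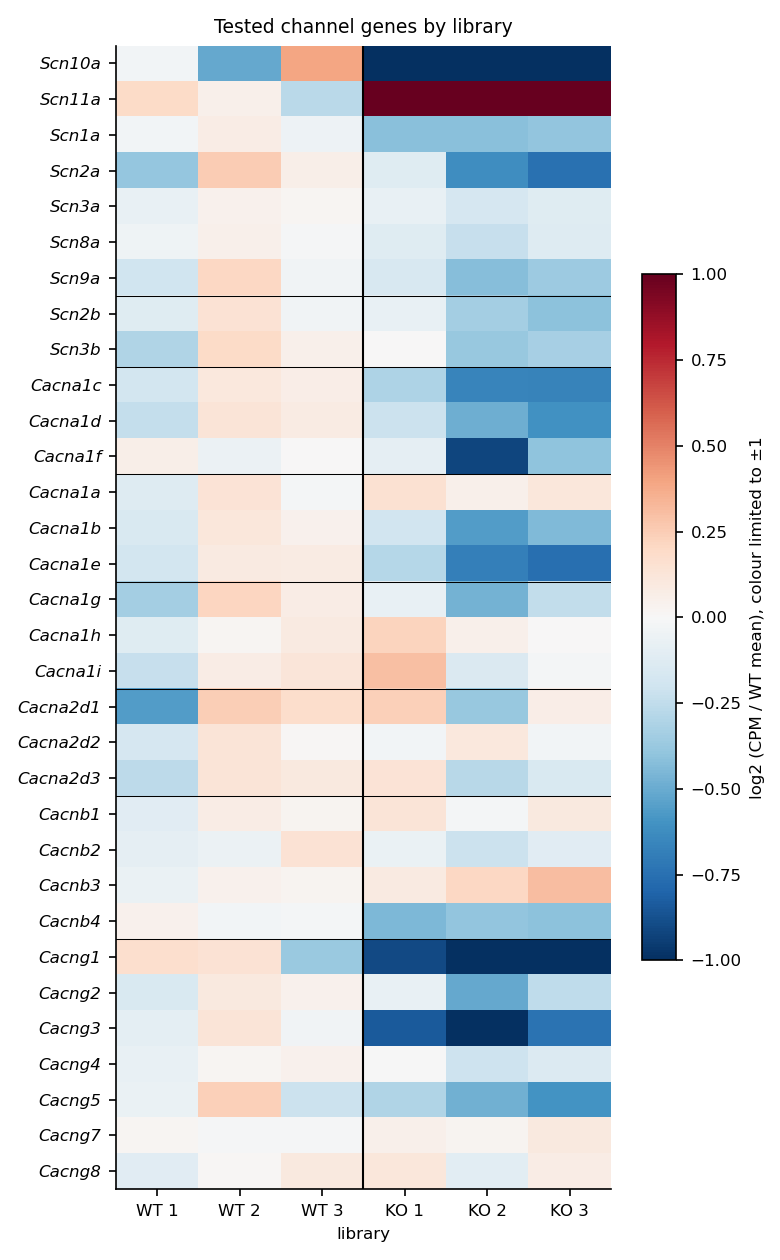
Each channel gene reported here (rows) in each library (columns) as log2 of CPM over the WT mean, blue lower and red higher, with colours limited at 1 unit. Scn1a, Cacnb4 and Cacng3 are evenly lower in all 3 pools labelled KO, whereas Scn2a, Cacna1d and Cacna1e are palest in KO 1.

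Promoter letters were read for the called genes because they moved mostly in 1 direction. The RefSeq table held promoters (250 bases before to 50 after a start) for 30 of 40 members, and 9 of the 10 called genes had at least 1. The E-box CAGCTG, the form bound by proneural factors, was in 11 of 36 promoters of tested members (30.6%) and 6 of 14 promoters of called genes (42.9%), against 16.3% of 32851 promoters. The GC box GGGCGG, read on both strands, was in 38.9%, 28.6% and 35.7% of these sets. The homeodomain core TAATTA was in 0 of 36 member promoters and in 5.29% of all. Half-sites of RE1, the element of the neuronal gene repressor REST, were also rare. TCAGCACC was in 0 of 36 and 1.65% of all, and GGACAGC in 1 of 36 and 6.56% of all, on either strand. Matches of a motif may overlap each other, promoters of 1 gene can share bases, and a match is a description only. The shares were not adjusted for base composition. Promoters of tested members ran from 33% GC (Scn2a) to 87.3% (Cacna1d), and the median of all promoters was 52.7%. A pair of stretches from genes that fell is shown with E-boxes and GC boxes in capitals, both on the minus strand of GRCm38.p6. That of Cacna1b (chr2:24763153-24763332) ends at the base before its annotated start, and that of Cacnb4 (chr2:52558612-52558791) at the base before an internal start of the gene. Cacnb4 has further promoters without the E-box. That at chr2:52676094-52676393 had GC boxes only, and that at chr2:52675810-52676109 had none of the motifs.
Cacna1b: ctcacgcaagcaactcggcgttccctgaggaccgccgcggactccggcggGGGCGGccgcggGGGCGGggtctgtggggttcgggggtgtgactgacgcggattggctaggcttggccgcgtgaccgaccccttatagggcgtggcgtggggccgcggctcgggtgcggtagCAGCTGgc
Cacnb4: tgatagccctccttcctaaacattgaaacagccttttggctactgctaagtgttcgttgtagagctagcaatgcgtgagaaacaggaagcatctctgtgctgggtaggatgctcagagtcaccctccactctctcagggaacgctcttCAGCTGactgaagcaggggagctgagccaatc

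Genes whose products partner with these channels were read from lists. Of all tested genes 10.5% fell and 9.72% rose, with a median log2 fold change of 0. Of 12 tested sodium channel partners 6 fell (50%), 0 rose and 6 did not pass (median log2 fold change -0.28). Fgf13 (1.43-fold lower, 78.1 ± 0.782 to 54.5 ± 5.51 CPM, edgeR adjusted p = 0.00209) and Fgf12 (1.74-fold lower, adjusted p = 0.00324) encode FGF homologous factors, which bind sodium channel tails. The scaffold genes Ank2 and Sptbn4, of ankyrin B and beta-IV spectrin, were 1.28-fold and 1.58-fold lower (edgeR adjusted p = 0.0154 and 0.0196). Both of the latter calls were lost without WT 2, WT 3, KO 2 or KO 3 (adjusted p = 0.0541 to 0.0714 for Ank2 and 0.0668 to 0.0837 for Sptbn4). That of Ank2 was also lost with the length trend removed (log2 fold change -0.06, adjusted p = 0.402), and that of Sptbn4 with no filter (0.0626). Calcium channel partners were mixed, with 3 of 15 higher (20%), 2 lower (13.3%, near the share of all tested genes) and 10 that did not pass. Stac2, which encodes an adaptor of L-type channels, rose 1.62-fold (13.8 ± 0.301 to 22.4 ± 1.75 CPM, SD, n = 3, edgeR adjusted p = 0.000777). Rem2, a small GTPase that inhibits these channels, rose 1.38-fold (adjusted p = 0.00366). Rims1, of the release site, was 1.36-fold lower and Stac 1.83-fold lower (adjusted p = 0.0222 and 0.0346). These 2 calls were also lost without WT 2, WT 3, KO 2 or KO 3 (edgeR adjusted p = 0.0694 to 0.0965 for Rims1 and 0.0912 to 0.137 for Stac). Stac did not pass with limma voom either (adjusted p = 0.0531).

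In the complex of NALCN, the sodium leak channel, 1 of 4 tested genes fell (25%, against 10.5% of all tested genes). This was Unc79, 1.35-fold lower (97.3 ± 2.22 to 72.3 ± 8.46 CPM, edgeR adjusted p = 0.00738), while the pore gene Nalcn did not pass (log2 fold change -0.15, adjusted p = 0.406) except without KO 1 (adjusted p = 0.00355). Of 6 intracellular calcium release channel genes 3 fell (50%, against 10.5%) and 3 did not pass. The ryanodine receptor genes Ryr2 and Ryr1 were 1.83-fold and 1.35-fold lower and Itpr1, an IP3 receptor gene, 1.43-fold lower (edgeR adjusted p = 0.00499, 0.0389 and 0.0221). Among REST and its corepressors 1 of 10 rose and 1 fell, namely Hdac2 (1.19-fold higher, adjusted p = 0.0262) and Rcor1 (1.16-fold lower, adjusted p = 0.0455). These shares, 10% each way, are near those of all tested genes (9.72% higher and 10.5% lower). The calls of Ryr1, Itpr1, Hdac2 and Rcor1 were each lost without any 1 library other than KO 1. Their edgeR adjusted p-values were then 0.0689 to 0.139, 0.0509 to 0.0857, 0.0638 to 0.121 and 0.066 to 0.153. With the length trend removed Ryr1 (log2 fold change -0.20, adjusted p = 0.157), Itpr1 (-0.32, 0.0505) and Rcor1 (-0.17, 0.0689) did not pass either.

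Cell type markers moved between the groups too. The shares below stand beside 10.5% lower and 9.72% higher among all tested genes. Of 20 pan-neuronal markers 6 fell (30%), 1 rose (5%) and 13 did not pass. Their summed list ran from 9360 to 10200 CPM in WT and from 8620 to 9400 CPM in the pools labelled KO. GABAergic markers had 4 of 9 lower (44.4%, summed 3780 to 4090 and 3290 to 3470 CPM). Radial glia markers had 10 of 16 higher (62.5%) and 1 lower (6.25%, summed 3300 to 3580 and 4230 to 4590 CPM). Markers of the neighbouring lateral eminence had 10 of 12 lower (83.3%, 939 to 1160 and 707 to 792 CPM). Those of cortical excitatory cells had 5 of 10 higher (50%, 44 to 81.5 and 88.2 to 142 CPM). Slc17a7 is in this count though it passed the filter through the pools labelled KO, where it is high. It had 3 to 7 counts in WT and 10 to 28 in those pools, so its rise is no support for a difference. In the lists of vascular endothelium and microglia 2 of 8 genes each fell (25%), and in that of red blood cells 4 of 8 rose (50%). No marker of these lists other than Myog was at 0. In bulk tissue fewer cells of a type and less RNA per cell cannot be told apart, and the part of cell makeup in the channel results was not tested.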

How the data were processed

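RNA was extracted from dissected MGE tissue pooled from 3 embryos per library, per the labels' protocols. The submitters' processing notes name GRCm38, STAR 2.5.2b, Trimmomatic 0.36, DESeq2, Subread 1.5.2 and featureCounts. Neither the annotation release nor the strand setting was found in the sources used here, so reads of overlapping genes on opposite strands cannot be told apart. The authors deposited raw read counts per gene, the input of each test here. Their second table (6 value columns) was not used. Gene names, positions and exon lengths came from GENCODE M21, which held 49056 of 49315 gene IDs.

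Genes kept by filterByExpr (at least 10 counts in enough libraries, at least 15 in all) were tested over all 6 libraries, unpaired, in edgeR 4.0.16 (R 4.3.3) with TMM and its quasi-likelihood test, robust setting, Benjamini-Hochberg adjusted over 18079 genes at 0.05. Standard errors came from the log2 fold change and its F statistic. Biological variation between libraries was 9.52% (coefficient of variation). The procedure was tested on simulated data. Principal components used log2 CPM with a prior count of 2. P-values measure the spread between these pools of embryos.

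The members, gene lists and motifs were chosen with earlier results of these data known. Any member could be named, and from each other list the 4 genes of smallest p. Prdm16, Nkx2-1, Lhx6, Lhx8, Xist, Myog and A430018G15Rik were named outside that rule. The alternatives tried were RLE, upper quartile and library total scaling, the filter dropped or set at a mean of 1 CPM, DESeq2 1.42.0, limma 3.58.1 voom, the block on replicate number, a spread estimate that was not robust, protein-coding genes only, removal of each library's length trend, each library left out and thresholds of 0.01 and 0.1. The 17 alternatives counted for a gene all use 0.05 and leave out the thresholds of 0.01 and 0.1. Words of 50 bases shared between members were counted in GENCODE transcripts. Some of the members are not reported here by name but stay in the counts and medians.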

Additional observations from a re-analysis of the deposited data

How the results depend on the processing

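Over the alternatives 517 of 576 member values had the same sign and call, 25 were no longer called, 17 became called and 17 changed sign, 0 of the last with a call in either fit. Members higher in KO numbered 1 as reported, 2 with no filter, 2 with DESeq2, 4 with the length trend removed and 2 at a threshold of 0.1; those lower numbered 9, and 11 with no filter, 10 with DESeq2, 12 at 0.1, 3 at 0.01 and 8 with the 1 CPM filter, without the robust spread or with the length trend removed. Fits without 1 library found 1 to 2 members higher and 4 to 17 lower, and among all tested genes 464 to 3752 higher and 727 to 3804 lower. With a block on replicate number 862 genes were higher and 1219 lower, of which 1 and 6 were members; the block lost Cacna1b (adjusted p = 0.0688), Cacna1d (0.105) and Cacng1 (0.0598). Libraries with the same number had deviations that correlated at -0.0756, -0.123 and 0.0264. With 3 pools a group such values cannot show whether the numbers pair the pools, and the labels do not say. A threshold of 0.01 gave 360 higher and 583 lower genes and one of 0.1 gave 2732 higher, by construction.

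The values that changed sign passed in neither fit. With the length trend removed these were Scn3a (0.04), Scn8a (0.03), Cacna2d3 (0.02), Cacnb2 (0.03), Cacng7 (-0.02), Cacng8 (-0.05), Nalcn (0.02), Fam155a (0.04) and Ttn (0.02), and with library totals Cacna2d1 (-0.0044). Without WT 1 they were Cacna1i (-0.04), Cacna2d1 (-0.20), Cacna2d2 (-0.05) and Cacng8 (-0.01), and without KO 1 Cacna1i (-0.07), Cacna2d1 (-0.11), Cacng8 (-0.0014) and Prdm16 (-0.03). Without KO 2 they were Cacna2d2 (-0.02), Cacna2d3 (0.0036) and Fam155a (0.02), without KO 3 Cacna2d1 (-0.02), without WT 2 Fam155a (0.05) and Prdm16 (-0.01), and without WT 3 Prdm16 (-0.03). Over the fits without 1 library these ranged from -0.07 to 0.15 (Cacna1i), -0.20 to 0.16 (Cacna2d1), -0.05 to 0.09 (Cacna2d2), -0.20 to 0.0036 (Cacna2d3), -0.01 to 0.1 (Cacng8), -0.1 to 0.05 (Fam155a) and -0.03 to 0.13 (Prdm16). The cause was not tested. Cacng1 and Cacna1f had no value under the filter of at least 1 CPM. With 6 to 35 counts a library, small changes of these 2 genes could not be seen.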
